A study of Mus musculus with 18 samples.

Results

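The collagen genes of the mouse ovary are described here by class. Members were all gene symbols of the form Col, a type number, a and a chain number, and 44 of the 30172 listed genes had such a symbol. They were divided by type into fibrillar collagens (types 1, 2, 3, 5 and 11, with 9 members), basement membrane collagens (type 4, with 6), type 6 collagens (6) and all others (23). A gene was tested on a day if at least 3 of the 6 libraries reached 1 FPKM, FPKM being the fragment number corrected for gene length and for the total of the library. This held for 34 members at Pd3, 34 at Pd7 and 30 at Pd21. The 10 members that were tested on no day are described below.

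Ovaries came from wild-type C57BL/6J females of the F1 generation, whose dams ate either normal chow (F1-Control group) or a diet with 3% methionine that raises homocysteine (F1-HHcy group). By the labels the dams' diet began 4 weeks before mating and lasted through pregnancy and lactation, and the pups were not treated themselves. The paper's methods instead give 6 weeks of feeding before pairing. RNA of the whole ovary was sequenced on postnatal day 3, 7 or 21 (Pd3, Pd7, Pd21), which gives 6 groups of 3 libraries, 18 in all. Pd3 and Pd7 carry batch label 1 and Pd21 carries batch label 2, so each comparison of diets lay within 1 batch, whereas age and batch cannot be told apart between Pd21 and the earlier days. The sources used here do not say how many pups gave RNA for a library, so the p-values measure the spread between these libraries.

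Collagens are secreted proteins built from 3 chains wound into a triple helix. Fibrillar collagens form the cables of connective tissue, type 4 forms the sheet-like network of basement membranes around follicles and vessels, and type 6 forms beaded microfilaments between them. In the ovary most fibrillar collagen is made by stromal and theca cells, while granulosa cells and endothelium lie on basement membranes whose type 4 chains change as follicles grow. Chains of one protein come from separate genes, so the levels of partner chains can be set side by side.

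Between 33630304 and 39398922 fragments were counted per library. The tissue label was borne out by the markers Gdf9 of oocytes (33.5 to 549.9 FPKM over the 18 libraries) and Foxl2 of granulosa cells (45.7 to 195.0 FPKM). All 3 F1-Control libraries at Pd21 also held markers of the oviduct. Ovgp1, a secreted oviduct glycoprotein, lay at 216.2, 37.5 and 365.4 FPKM there against 0.370 to 2.10 in F1-HHcy. Markers of multiciliated cells summed to 55.4 to 207 FPKM in F1-Control and 4.62 to 8.19 FPKM in F1-HHcy at Pd21. Every comparison of diets at Pd21 below carries this difference.

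Collagen transcripts took 0.433% to 1.14% of the counted fragments of a library. Fibrillar members summed to 426 to 1096 FPKM per library and were the largest class in each of them, followed by type 6 with 126 to 483 FPKM. The leading fibrillar genes by mean level over the 18 libraries were Col3a1, the single chain of type 3, and Col1a2 and Col1a1, the chains of type 1. Col3a1 ranged from 189 to 481 FPKM. Type 4 was led by Col4a1, Col4a2 and Col4a5, type 6 by Col6a1, Col6a2 and Col6a3, and the remaining class by Col18a1, Col9a2 and Col26a1. Col18a1 encodes the basement membrane proteoglycan from which endostatin is cut.

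**Figure D1:**
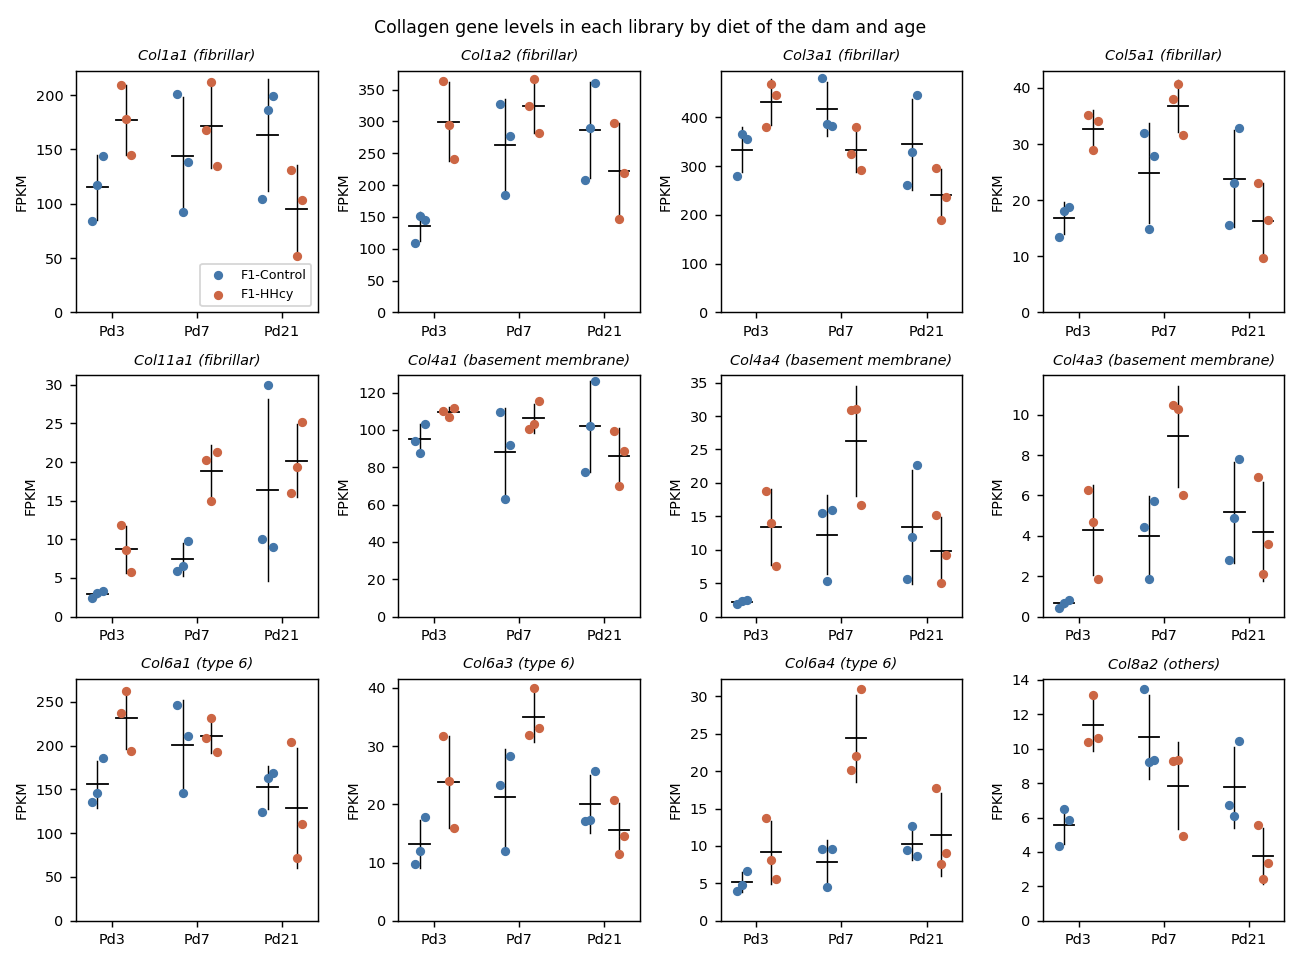
Level of 12 collagen genes in each library (FPKM, linear axis from 0), by day on the x axis, with F1-Control in blue and F1-HHcy in orange. Points are single libraries, horizontal lines are means and vertical lines are SD with n = 3. At Pd3 the F1-HHcy points of Col1a2, Col5a1, Col11a1, Col4a4, Col4a3 and Col8a2 lie above all F1-Control points, and F1-Control replicate 2 is the lowest of its group at Pd7 for most of the genes shown.

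The 10 members below the filter include the main collagens of cartilage. Col2a1, the chain of cartilage fibrils, had 0 to 10 fragments per library. Col10a1 of hypertrophic cartilage and Col9a1, the first chain of type 9, had at most 6 and 2 fragments. The partner of Col9a1 was nevertheless abundant: Col9a2 lay between 13.8 and 36.1 FPKM. Col11a1, which in cartilage pairs with Col11a2 and Col2a1, reached 29.9 FPKM while Col11a2 stayed between 0.0235 and 1.13 FPKM. The others under the filter were Col5a3, Col13a1, Col17a1, Col19a1, Col22a1 and Col28a1.

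Diets were compared with limma on log2(FPKM + 1), and genes counted as called when p before adjustment was under 0.05 and the log2 fold change exceeded 0.58 in size. Adding 1 to the FPKM shrinks the fold change of low genes. With 3 libraries against 3 the 2-sided exact permutation test has a smallest possible p of 0.1 for any 1 gene. At Pd3, 11 of the 34 tested members were higher in the F1-HHcy group and 2 were lower, against 5% and 4.74% of all genes tested. Col4a3, one of the 11, passed the filter through the F1-HHcy libraries alone and could only be called higher. An adjusted p under 0.05 (limma, Benjamini-Hochberg over all genes) was reached by 8 of the 11, Col4a3 included, and by neither of the lower ones, with 1.64% and 1.43% of all genes as background. Of the higher members, Col1a1, Col6a3 and Col16a1 did not reach it. The 3 F1-HHcy libraries lay above the 3 F1-Control libraries for 16 members, again with Col4a3 among them, which held for 11.8% of all genes. They lay below them for 3 members, which held for 16.1%. Leaving out F1-HHcy replicate 1 left 0 lower members, and leaving out F1-Control replicate 3 left 1. The median log2 fold change was 0.37 over the members and -0.03 over all genes. In RNA of a whole organ, more cells of a type and more RNA per cell cannot be told apart.

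At Pd7, 9 of 34 members were called higher and 3 lower, with 9.06% and 7.35% of all genes as background. With the adjusted p these counts were 3 and 1, against 5.88% and 5.98% of all genes. Groups did not overlap for 8 members in the higher direction and 3 in the lower, against 19.5% of all genes in each direction. One of the 8, Col24a1, passed the filter through the F1-HHcy libraries alone, so its groups could only separate in the higher direction. The count at Pd7 rested on F1-Control replicate 2, a library with low collagen levels, since 5 members were called higher without it. The lower members numbered 1 without F1-Control replicate 1 or without F1-HHcy replicate 3.

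At Pd21 no member of 30 was called higher and 3 were lower, against 0.0824% and 5.06% of all genes. None passed with an adjusted p (limma, Benjamini-Hochberg), which 2.23% of all genes passed in the lower direction. Before adjustment 4 members had p under 0.05, and limma-voom on the recovered fragments called 0 higher and 4 lower. The groups of the 3 called members did not overlap, which held for 8.61% of all genes in that direction and 1.92% in the other. The log2 fold change was below 0 for 26 of the 30 members, with a median of -0.33, whereas it was below 0 for 52.5% of all genes, with a median of -0.01. Leaving out F1-HHcy replicate 1 raised the count of lower members to 10, and leaving out F1-Control replicate 1 raised it to 7. Without F1-Control replicate 2, 1 member was called higher.

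**Figure D2:**
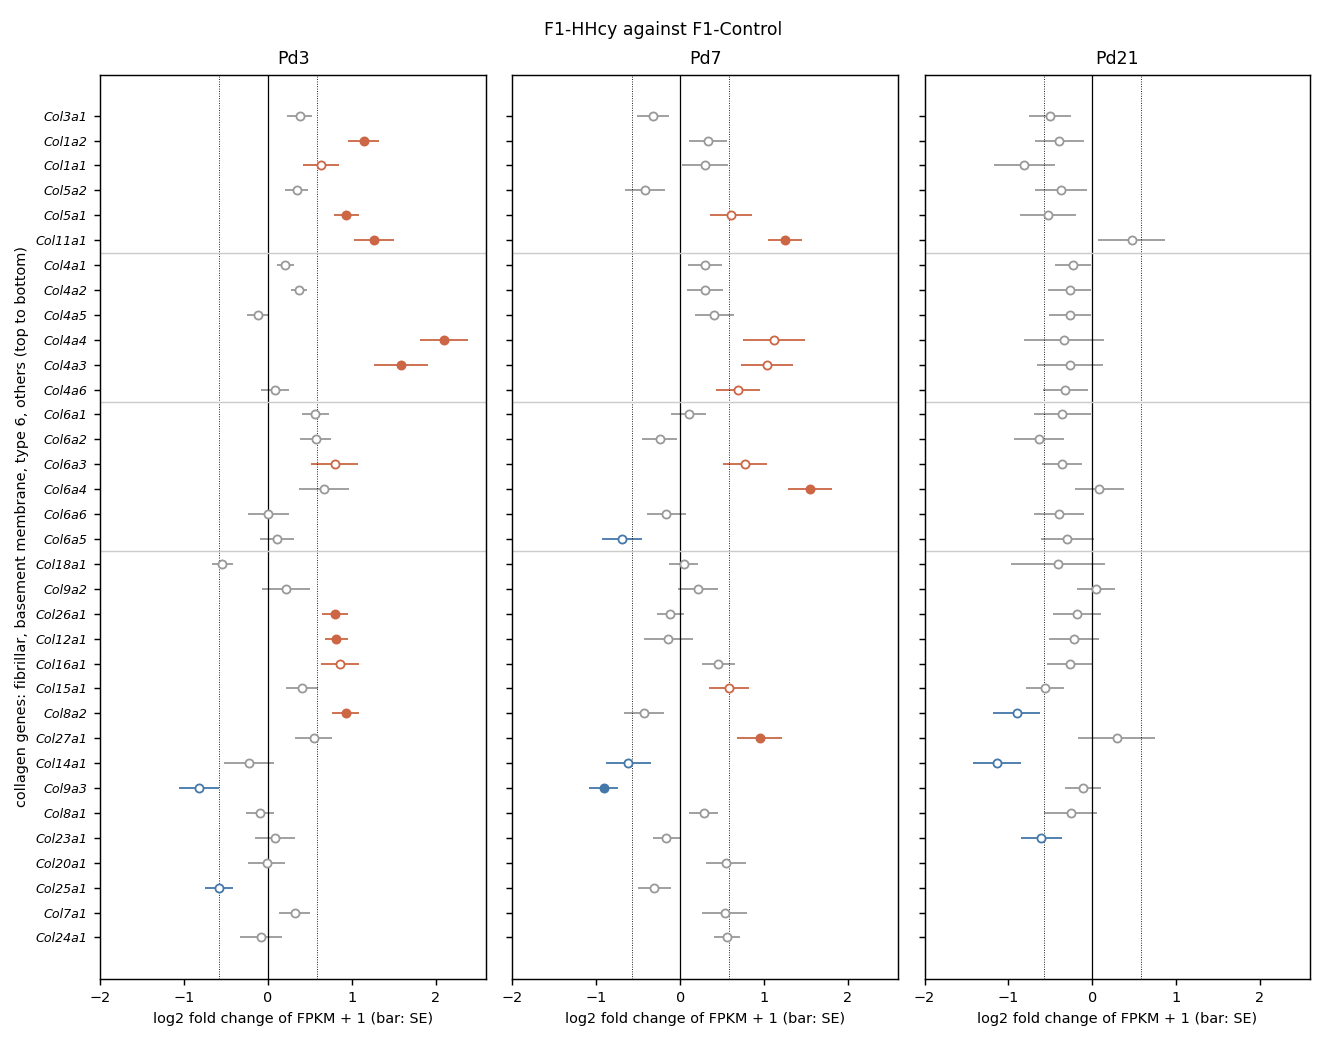
Log2 fold change of FPKM + 1 in F1-HHcy against F1-Control (x axis, bars are SE) for the 34 tested collagen genes (y axis, by class) at Pd3, Pd7 and Pd21. Orange marks genes called higher, blue genes called lower, grey genes not called, filled points have an adjusted p under 0.05, and dotted lines stand at 0.58 on either side. Of the called genes 11 are orange and 2 blue at Pd3, 9 are orange and 3 blue at Pd7, and 3 are blue at Pd21.

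Markers of cell types also differed between the diets, in directions that varied with the list and the day. At Pd3, 5% of all genes tested were called higher and 4.74% lower. These shares were 9.06% and 7.35% at Pd7, and 0.0824% and 5.06% at Pd21. Of 6 stromal markers (Pdgfra, Tcf21, Nr2f2, Dcn, Lum, Dpt), 5 were called higher and none lower at Pd3, and their summed level was 561 to 760 FPKM in F1-HHcy against 299 to 418 FPKM in F1-Control. At Pd7, 1 was higher and 2 were lower, with sums of 453 to 788 FPKM in F1-HHcy and 715 to 961 FPKM in F1-Control. At Pd21, 2 were lower, with sums of 348 to 518 and 479 to 724 FPKM. With the adjusted p, 3 stromal markers passed as higher at Pd3, 1 as higher at Pd7 and none at Pd21. Endothelial markers were called higher for 3 of 5 at Pd3 (62.6 to 90.7 FPKM against 35.5 to 49.5 FPKM in F1-Control), none of them with the adjusted p. All 5 theca markers were higher at Pd7, with sums of 1130.4 to 1181 FPKM against 216 to 446 FPKM. Only 2 of the 5 passed the filter within the F1-Control libraries of Pd3 and Pd7. The rest needed F1-HHcy libraries to be tested at Pd7, which favours calls in the higher direction. Erythroid markers were lower for 5 of 5 at Pd3, and their sum was 689.8 to 953 FPKM in F1-HHcy and 3177 to 9134 FPKM in F1-Control. Only 3 of these 5 passed the filter within the F1-HHcy libraries of Pd3 and Pd7. The rest needed F1-Control libraries to be tested at Pd3, which favours calls in the lower direction.

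Other lists differed as well, to be read against the same shares of all genes. Granulosa markers were called higher for 2 of 4 tested at Pd3 (229 to 446 FPKM in F1-HHcy against 173 to 188 FPKM in F1-Control) and for 3 of 5 at Pd7 (449.6 to 734 FPKM against 210.3 to 447 FPKM). Oocyte markers were higher for 2 of 6 and lower for 2 at Pd3 (610.6 to 784 FPKM against 399 to 514 FPKM), and lower for 5 of 6 at Pd7 (404 to 728 FPKM against 622 to 1084 FPKM). Markers of the surface epithelium were lower for 4 of 5 at Pd7 (179 to 353 FPKM against 417 to 684 FPKM) and at Pd21 (95.8 to 196 FPKM against 281 to 401 FPKM). Adipocyte markers were lower for 3 of 4 tested at Pd21 (7.54 to 79.4 FPKM against 51.8 to 309 FPKM). Chondrocyte markers summed to 22.5 to 97.9 FPKM in F1-HHcy and 4.96 to 9.92 FPKM in F1-Control at Pd3, where Cnmd made up most of the sum (95.9, 49.5 and 18.1 FPKM against 3.22, 3.09 and 7.87 FPKM) and was the only called one of 2 tested, while Snorc was at 0 in every F1-HHcy library. With an adjusted p under 0.05 (limma, Benjamini-Hochberg), 2 granulosa and 2 oocyte markers passed as higher at Pd3. At Pd7, 1 granulosa marker passed as higher, and 3 oocyte and 4 surface epithelium markers passed as lower. No surface epithelium or adipocyte marker passed at Pd21. The part of these cell types in the collagen results was not tested.

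Of the 9 fibrillar collagens, 6 were tested at Pd3 and 4 of these were called higher (Col1a2, Col1a1, Col5a1 and Col11a1). The groups did not overlap for any of the 6. Col1a2 (chr6:4505618-4541543, GRCm38) lay at 109, 151 and 145 FPKM in the F1-Control libraries and at 364, 294 and 241 FPKM in F1-HHcy, so that even the lowest F1-HHcy library stood well above the highest control. The means were 135 ± 23 and 299 ± 62 FPKM (SD, n = 3), a ratio of 2.22, and the log2 fold change was 1.14 ± 0.19 (SE, limma adjusted p = 0.0307, Benjamini-Hochberg). Its partner Col1a1 lay at 84.3, 118 and 144 FPKM against 209, 178 and 145 FPKM. The groups of Col1a1 nearly touched, and its log2 fold change was 0.63 ± 0.22, without an adjusted p under 0.05. Its call was lost without F1-Control replicate 1 (0.43), F1-HHcy replicate 1 (0.51) or F1-HHcy replicate 2 (0.62). The model of all 18 libraries did not call it either. The ratio of Col1a2 to Col1a1 was accordingly 1.01 to 1.29 in F1-Control and 1.65 to 1.74 in F1-HHcy at Pd3. At Pd7 it was 1.63 to 2.00 in F1-Control and 1.73 to 2.09 in F1-HHcy, with overlapping groups. At Pd21 it was 1.56 to 2.00 and 2.12 to 2.81, without overlap.

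Col11a1, a minor fibrillar chain that sets fibril diameter, had the largest fibrillar change. It lay at 2.41, 3.11 and 3.26 FPKM in F1-Control at Pd3 and at 11.8, 8.60 and 5.71 FPKM in F1-HHcy. At Pd7 the values were 5.92, 6.49 and 9.84 FPKM against 20.2, 14.9 and 21.3 FPKM. On both days each F1-HHcy library exceeded each F1-Control library. The log2 fold changes were 1.26 ± 0.24 at Pd3 and 1.25 ± 0.20 at Pd7 (limma, Benjamini-Hochberg adjusted p = 0.0392 and 0.00682), and the ratios of the means were 2.98 and 2.54. At Pd21 the groups overlapped, with 10.1, 29.9 and 9.02 FPKM in F1-Control and 16.0, 19.4 and 25.2 FPKM in F1-HHcy.

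Col5a1, which nucleates collagen fibrils, was higher at Pd3 (13.5, 18.1 and 18.9 FPKM against 35.1, 28.9 and 34.1 FPKM, log2 fold change 0.93 ± 0.15). At Pd7 its groups overlapped and the change of 0.61 ± 0.25 fell to 0.29 without F1-Control replicate 2. Its partner Col5a2 had log2 fold changes of 0.34 ± 0.14 at Pd3 and -0.42 ± 0.23 at Pd7. The ratio of Col5a2 to Col5a1 was 1.61 to 1.87 in F1-Control and 0.890 to 1.42 in F1-HHcy at Pd3, and at Pd7 1.17 to 2.31 and 0.596 to 0.867, with no overlap on either day. Col3a1, the most abundant fibrillar gene, differed by 0.38 ± 0.15 at Pd3, by -0.33 ± 0.19 at Pd7 and by -0.51 ± 0.25 at Pd21, none of which was called. At Pd21 no fibrillar gene was called, and the smallest p was that of Col1a1 (104, 186 and 199 FPKM against 131, 52.3 and 103 FPKM, log2 fold change -0.81 ± 0.36), whose groups overlapped.

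The DNA just before the start of 4 of these genes is shown because Col1a2, Col11a1 and Col8a2 were called at Pd3 with an adjusted p under 0.05 and Col3a1, though more abundant, was not called. The windows are the 150 bases upstream of a RefSeq start on the plus strand of GRCm38.p6, at chr6:4505468-4505617 for Col1a2, chr1:45311388-45311537 for Col3a1, chr3:114030390-114030539 for Col11a1 and chr4:126286644-126286793 for Col8a2. The annotated span of Col11a1 begins at chr3:114030479, so the end of its window, with the last GGGCGG match, lies inside that span. Capitals mark matches on either strand to 3 strings. The first is CCAAT, which reads ATTGG from the opposite strand. The next is TATAAA, with TTTATA as its reverse complement. The last is GGGCGG, with CCGCCC as its reverse complement, and its neighbouring matches in Col8a2 overlap.
Col1a2: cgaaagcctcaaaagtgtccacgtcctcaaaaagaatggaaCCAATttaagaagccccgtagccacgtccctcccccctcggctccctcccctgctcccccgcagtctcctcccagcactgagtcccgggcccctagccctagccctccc
Col3a1: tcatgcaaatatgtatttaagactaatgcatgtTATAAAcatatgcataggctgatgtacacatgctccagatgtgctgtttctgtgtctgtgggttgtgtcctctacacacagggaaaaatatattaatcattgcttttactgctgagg
Col11a1: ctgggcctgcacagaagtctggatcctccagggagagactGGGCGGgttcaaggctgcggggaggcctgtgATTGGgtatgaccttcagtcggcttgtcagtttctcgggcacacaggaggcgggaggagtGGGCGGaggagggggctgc
Col8a2: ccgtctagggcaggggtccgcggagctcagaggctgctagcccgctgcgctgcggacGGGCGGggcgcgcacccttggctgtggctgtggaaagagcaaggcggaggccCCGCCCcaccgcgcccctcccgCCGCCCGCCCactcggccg

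Col1a2 and Col11a1 thus held 1 CCAAT match each in these windows, Col3a1 held a TATAAA match and Col8a2 held GGGCGG matches alone. RefSeq windows were matched for 35 of the 44 members. In the 250 bases before the start, CCAAT was found in 13 of the 38 windows of these genes (34.2%, against 33.8% of all 32851 windows), TATAAA in 5 (13.2% against 12.4%) and GGGCGG in 22 (57.9% against 32.7%). The first 2 shares were near those of all genes, and a match describes the letters only.

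Basement membrane collagens fell into 3 pairs of neighbouring genes that are read in opposite directions from nearby starts. The starts lie 21 bases apart for Col4a1 and Col4a2 on chromosome 8, 72 bases apart for Col4a4 and Col4a3 on chromosome 1, and 1343 bases apart for Col4a5 and Col4a6 on chromosome X. Col4a1 and Col4a2 make the network found in every basement membrane, whereas the chains of Col4a3, Col4a4 and Col4a5 assemble into a tighter network of specialised membranes. The annotated spans of Col4a1 with Col4a2 and of Col4a4 with Col4a3 overlap at the starts, and whether fragments were counted by strand is not given in the sources used here.

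Col4a4 (chr1:82448419-82587034) and Col4a3 (chr1:82586921-82722059) had the largest ratios between diets of all called members. Col4a4 lay at 1.88, 2.29 and 2.45 FPKM in F1-Control at Pd3 and at 18.8, 14.0 and 7.54 FPKM in F1-HHcy. Every F1-HHcy library was above the controls, with F1-HHcy replicate 3 the nearest to them. The ratio of the means was 6.10 and the log2 fold change was 2.09 ± 0.29 (limma, Benjamini-Hochberg adjusted p = 0.0203). Col4a3 lay at 0.446, 0.662 and 0.838 FPKM in F1-Control, from 141, 213 and 264 fragments, and at 6.25, 4.70 and 1.88 FPKM in F1-HHcy. Its log2 fold change was 1.58 ± 0.32, with the limit on its direction given above. The granulosa cell hormone Amh, 1 of the 5 granulosa markers, ran in the same order in these libraries. It lay at 99.7, 35.2 and 9.72 FPKM in F1-HHcy and 1.65, 2.08 and 2.51 FPKM in F1-Control. Of the 4 granulosa markers tested at Pd3, 3 had a log2 fold change above 0, and the order of the others is not given here. The relation of Amh to the collagens was not tested.

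At Pd7 Col4a4 lay at 15.5, 5.39 and 15.9 FPKM in F1-Control and at 31.0, 31.1 and 16.7 FPKM in F1-HHcy. The lowest F1-HHcy library was only slightly above the highest control. The log2 fold change was 1.12 ± 0.37 for Col4a4 and 1.04 ± 0.31 for Col4a3, without an adjusted p under 0.05 for either (limma, Benjamini-Hochberg, 0.0747 and 0.0557). Without F1-Control replicate 2 the changes were 0.66 and 0.68. Col4a6 was also called at Pd7 (4.63, 1.57 and 3.36 FPKM against 5.57, 6.19 and 4.53 FPKM, log2 fold change 0.68 ± 0.26), but its groups overlapped and the change was 0.37 without F1-Control replicate 2.

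The general chains Col4a1 and Col4a2 were called on no day. Col4a1 lay at 94.2, 87.7 and 103 FPKM in F1-Control at Pd3 and at 110.1, 107 and 112 FPKM in F1-HHcy, without overlap, and its log2 fold change was 0.20 ± 0.10. Col4a2 had a log2 fold change of 0.36 ± 0.10 and Col4a5 of -0.12 ± 0.13 at Pd3. At Pd21 the 6 log2 fold changes ran from -0.34 to -0.23, and no type 4 gene was called. Summed type 4 levels were 163 to 186 FPKM in F1-Control and 215 to 219 FPKM in F1-HHcy at Pd3, 117 to 220 FPKM and 226 to 231 FPKM at Pd7, and 139 to 245 FPKM and 119 to 198 FPKM at Pd21.

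**Figure D3:**
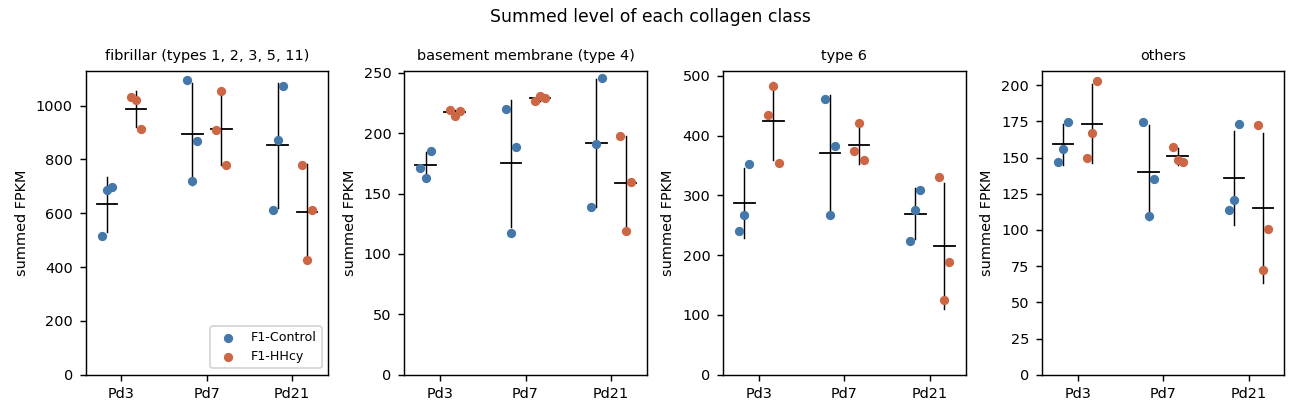
Summed FPKM of each collagen class in each library (y axis from 0) by day, with F1-Control in blue and F1-HHcy in orange. Points are libraries, horizontal lines are means and vertical lines are SD with n = 3. The fibrillar, type 4 and type 6 sums of the F1-HHcy libraries lie above those of F1-Control at Pd3, and all classes overlap at Pd21. For type 6 at Pd3 the groups nearly touch (lowest F1-HHcy library 353.6 FPKM, highest F1-Control library 352.8 FPKM).

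Ratios between type 4 chains differed in how far they ranged. Over the 18 libraries the ratio of Col4a1 to Col4a2 ranged from 1.55 to 2.21, that of Col4a4 to Col4a3 from 2.02 to 4.22 and that of Col4a5 to Col4a6 from 2.71 to 5.09. Between chains of different pairs, the ratio of Col4a1 to Col4a5 ranged from 4.97 to 9.83 and that of Col4a4 to Col4a5 from 0.107 to 1.85. In F1-Control libraries at Pd3 the latter was 0.107 to 0.136, and in F1-HHcy libraries 0.39 to 1.35. At Pd7 it was 0.675 to 1.31 and 1.14 to 1.85, with overlapping groups.

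**Figure D4:**
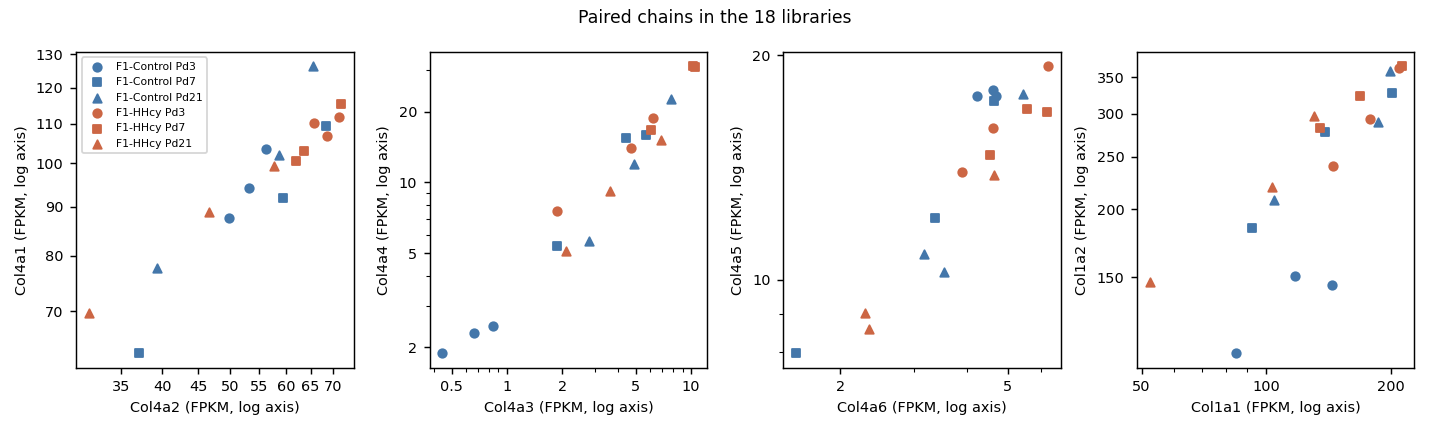
Level of 1 chain against its partner (FPKM, both axes logarithmic) in the 18 libraries, for 3 neighbouring type 4 pairs and for the type 1 chains. Colour gives the diet and shape the day. The F1-Control libraries at Pd3 stand apart at the low end of Col4a3 and Col4a4 and lie below the others in the panel of Col1a2 against Col1a1.

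The log2 fold changes of the 6 type 6 collagens ran from 0.000365 to 0.79 at Pd3, and 1 gene was called. Col6a3, the long chain, lay at 9.75, 12.0 and 17.8 FPKM in F1-Control and at 31.7, 23.9 and 15.9 FPKM in F1-HHcy. The lowest F1-HHcy library was below the highest control, and the log2 fold change of 0.79 ± 0.28 lost its call in the fit with the replicate number as a block. The call was also lost without F1-HHcy replicate 1 (0.57) or 2 (0.77), or without F1-Control replicate 1 (0.61) or 2 (0.75). The abundant chains Col6a1 (135, 146 and 186 FPKM against 237, 262 and 194 FPKM) and Col6a2 had log2 fold changes of 0.57 ± 0.16 and 0.57 ± 0.19, just under the threshold of 0.58. At Pd7 Col6a3 was called again (0.77 ± 0.26) with 32.0, 40.0 and 33.2 FPKM in F1-HHcy against 23.4, 12.0 and 28.3 FPKM in F1-Control, although the change was 0.43 without F1-Control replicate 2.

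The chains that can replace Col6a3 of type 6 moved apart at Pd7. Col6a4 (chr9:105990318-106096828) lay at 9.57, 4.54 and 9.60 FPKM in F1-Control and at 20.1, 22.1 and 30.9 FPKM in F1-HHcy. Its log2 fold change was 1.55 ± 0.26 (limma, Benjamini-Hochberg adjusted p = 0.00747), the largest of that day among the members, and the ratio of the means was 3.08. Col6a5, its neighbour (chr9:105856070-105962463), lay at 10.6, 5.50 and 5.07 FPKM in F1-Control and at 3.67, 4.39 and 3.27 FPKM in F1-HHcy, a log2 fold change of -0.70 ± 0.24 that was -0.40 without F1-Control replicate 1. Neither gene overlapped between the diets at Pd7. The ratio of Col6a4 to Col6a5, computed after these values were seen, was 0.825 to 1.89 in F1-Control and 5.02 to 9.47 in F1-HHcy at Pd7, and 2.58 to 9.67 and 6.76 to 8.91 at Pd21. The remaining member, Col6a6, was called on no day. At Pd21 no type 6 gene was called, and the smallest p was that of Col6a2 (-0.63 ± 0.30), with F1-HHcy replicate 2 at 32.7 FPKM as the lowest of all libraries.

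Of the 16 other collagens tested at Pd3, 4 were called higher and 2 lower. Col8a2, a short-chain collagen that forms lattices, lay at 4.36, 6.50 and 5.84 FPKM in F1-Control and at 10.4, 13.1 and 10.7 FPKM in F1-HHcy, with a log2 fold change of 0.92 ± 0.16 (limma, Benjamini-Hochberg adjusted p = 0.0335). At Pd21 it was called in the opposite direction, with 6.73, 6.08 and 10.5 FPKM in F1-Control and 5.56, 2.40 and 3.33 FPKM in F1-HHcy (-0.90 ± 0.28). The groups did not overlap on either day. On Pd7 they did, with a log2 fold change of -0.43 ± 0.24. Col12a1 and Col16a1, which associate with fibrils, and Col26a1, first found in testis and ovary, were the other 3, with log2 fold changes from 0.80 to 0.86 and no overlap between the groups.

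Col9a3 was lower on both early days. It lay at 7.06, 6.38 and 8.47 FPKM in F1-Control and 2.26, 3.89 and 5.38 FPKM in F1-HHcy at Pd3, and at 3.96, 4.70 and 2.91 FPKM against 1.43, 1.59 and 1.64 FPKM at Pd7. No library of one diet reached those of the other on these days. The log2 fold changes were -0.82 ± 0.24 and -0.91 ± 0.17, of which the second had an adjusted p under 0.05 (limma, Benjamini-Hochberg, 0.0115), and at Pd3 the change was -0.56 without F1-HHcy replicate 1. Col9a2, the other type 9 chain above the filter, differed by 0.21 ± 0.28 and 0.21 ± 0.24. Col25a1, a collagen with a membrane anchor, was lower at Pd3 (2.71, 2.49 and 3.18 FPKM against 1.12, 1.54 and 1.98 FPKM, -0.58 ± 0.17). Col18a1, the most abundant of this class, lay at 70.0, 60.5 and 69.1 FPKM against 40.2, 43.8 and 52.0 FPKM at Pd3, without overlap, and its log2 fold change of -0.55 ± 0.12 did not reach the threshold.

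At Pd7 Col27a1, which also forms fibrils but lies outside the types set as fibrillar here, was higher in the F1-HHcy group (8.54, 3.77 and 7.79 FPKM against 16.9, 12.6 and 10.7 FPKM, log2 fold change 0.95 ± 0.27, limma adjusted p = 0.0469 by Benjamini-Hochberg), and the groups did not overlap. Col15a1, a basement membrane relative of Col18a1, was called with 0.58 ± 0.24 and overlapping groups, and the change was 0.36 without F1-Control replicate 2. Col14a1, which binds fibril surfaces, was called lower at Pd7 (-0.62 ± 0.27), where the groups overlapped and the change was -0.33 without F1-Control replicate 1. At Pd21 it was 2.43, 3.38 and 6.53 FPKM in F1-Control and 1.17, 0.951 and 1.54 FPKM in F1-HHcy, a log2 fold change of -1.13 ± 0.29 with no overlap. Col23a1, a collagen with a membrane anchor, was the last member called lower at Pd21 (2.11, 1.92 and 3.54 FPKM against 1.82, 0.820 and 1.28 FPKM, -0.61 ± 0.24), and without F1-Control replicate 3 its change was -0.41.

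From Pd3 to Pd7 in F1-Control ovaries, 6 of 33 tested members were called higher and 3 lower, against 7% and 7.77% of all genes. With an adjusted p (limma, Benjamini-Hochberg) 6 and 2 passed, against 6.9% and 7.59%. The 6 higher members were Col4a4 (log2 fold change 1.92 ± 0.34), Col4a3 (1.52 ± 0.29), Col11a1 (1.08 ± 0.20), Col1a2 (0.93 ± 0.23), Col8a2 (0.83 ± 0.19) and Col26a1 (0.75 ± 0.16). Col4a3 passed the filter here through the Pd7 libraries alone, so it could only be called higher. The comparison of diets at Pd3 uses the same F1-Control libraries of Pd3, so a low value in them raises both changes and no agreement can be read from them. The diet changes of these 6 genes at Pd3 were 2.09, 1.58, 1.26, 1.14, 0.92 and 0.80. Mean Col1a2 was 135 FPKM in F1-Control at Pd3, 299 FPKM in F1-HHcy at Pd3 and 263 FPKM in F1-Control at Pd7. The lower members were Col18a1 (66.5 ± 5.2 FPKM at Pd3 and 33.0 ± 7.4 FPKM at Pd7, SD, n = 3, log2 fold change -1.01 ± 0.17), Col9a3 (-0.78 ± 0.18) and Col25a1 (-0.67 ± 0.20). Without F1-Control replicate 2 of Pd7, 10 members were called higher, and without replicate 1 of Pd7, 7 were called lower. The fit with the replicate number as a block also called Col6a3 higher (0.61).

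In F1-HHcy ovaries 6 of 34 members were called higher from Pd3 to Pd7 and 3 lower, against 5.73% and 5.36% of all genes. No member had an adjusted p under 0.05 (limma, Benjamini-Hochberg), and nor did any other gene, while 12 members had an unadjusted p under 0.05 and limma-voom called 6 higher and 5 lower. Col6a4 had the largest change (9.16 ± 4.19 to 24.4 ± 5.78 FPKM, log2 fold change 1.38 ± 0.30), followed by Col11a1 (1.06 ± 0.25), Col4a3 (0.98 ± 0.36), Col4a4 (0.95 ± 0.35), Col27a1 (0.63 ± 0.18) and Col6a3 (0.58 ± 0.24). Col1a2 and Col8a2 differed by 0.13 ± 0.18 and -0.52 ± 0.23. Without F1-HHcy replicate 3 of Pd3 the changes were 0.59 for Col4a3, 0.61 for Col4a4 and 0.33 for Col6a3. The 3 lower members were Col9a3, Col14a1 and Col6a5, of which Col14a1 was -0.51 without that library. The higher count was 3 without replicate 3 of Pd3 or replicate 2 of Pd7 and 2 without replicate 1 of Pd7, and the lower count was 1 without replicate 2 of Pd3 or replicate 3 of Pd7.

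**Figure D5:**
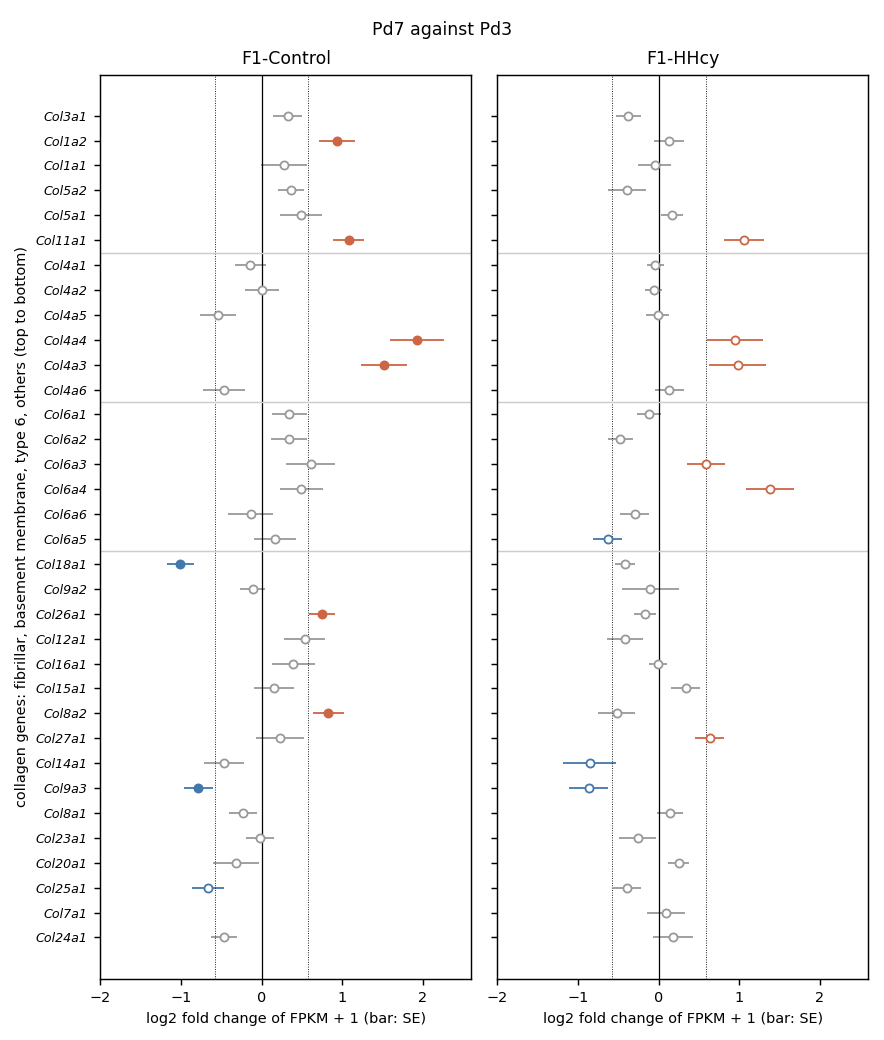
Log2 fold change of FPKM + 1 at Pd7 against Pd3 (x axis, bars are SE) for the tested collagen genes (y axis, by class) in F1-Control and F1-HHcy ovaries. Colours and filling are as for the diets, with orange for higher, blue for lower and filled points for an adjusted p under 0.05. Filled points appear in the F1-Control panel alone, for 6 higher and 2 lower genes.

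Whether the diet effect changed from one day to another was tested as an interaction over all 18 libraries. For Pd7 minus Pd3, 6 members were called, all lower (Col8a2 -1.35 ± 0.37, Col12a1 -0.96 ± 0.42, Col26a1 -0.92 ± 0.33, Col6a2 -0.81 ± 0.38, Col1a2 -0.81 ± 0.38 and Col3a1 -0.70 ± 0.29), against 5.28% of all genes lower and 4.75% higher. None had an adjusted p under 0.05 (limma, Benjamini-Hochberg), which 0.308% of all genes had in the lower and 0.103% in the higher direction, while 6 members had p under 0.05 before adjustment and limma-voom called 5 lower. The 6 became 2 without replicate 1 of F1-Control at Pd3 or Pd7, replicate 2 of F1-HHcy at Pd3 or replicate 3 of F1-HHcy at Pd7, and 3 members were called higher without replicate 1 of F1-Control at Pd7. Col11a1 had a difference of -0.02 ± 0.48, whose 95% interval ran from -1.03 to 1.00. For Pd21 minus Pd3, 15 members were called lower and 2 higher, against 9.04% and 4% of all genes. An adjusted p under 0.05 (limma, Benjamini-Hochberg) was reached by Col8a2, Col1a2 and Col4a4, with 3.78% of all genes lower and 0.815% higher by this criterion. Their differences were -1.82 ± 0.37, -1.53 ± 0.38 and -2.43 ± 0.66. The 2 higher members, Col25a1 and Col9a3, were those called lower at Pd3, and leaving out 1 library left 0 to 2 of such higher calls, with 0 without replicate 2 of F1-Control at Pd21 or replicate 1 of F1-HHcy at Pd3.

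Genes that act on collagen were called in the higher direction alone at Pd3, by the criterion before adjustment. Of all genes tested, 5% were called higher at Pd3 and 4.74% lower. The higher share was 9.06% for Pd7 and 0.0824% for Pd21, and the lower share 7.35% for Pd7 and 5.06% for Pd21. Of 15 enzymes that hydroxylate or glycosylate the chains, 3 were called higher at Pd3 (the lysyl hydroxylases Plod1 and Plod2 and the prolyl hydroxylase P3h2, 0.63 to 0.76) and none lower. At Pd7 4 were higher, led by Plod2 (1.24 ± 0.22, limma, Benjamini-Hochberg adjusted p = 0.00981), and at Pd21 none was called. Of 8 genes for folding and export, Creb3l1, a transcription factor for collagen genes, was higher at Pd3 (0.74 ± 0.21), and none was called at Pd7 or Pd21. Among the genes that cut off propeptides, 4 of 10 were tested, and Adamts2 was higher at Pd3 (0.93 ± 0.13) and, with Bmp1, at Pd7 (0.62 ± 0.18), while none of the 3 tested at Pd21 was called.

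Of 5 tested crosslinking genes, Loxl3 was higher at Pd3 (0.63 ± 0.17), and Loxl1, a lysyl oxidase, was lower at Pd7 (-0.68 ± 0.18) and at Pd21 (-0.69 ± 0.20). Pxdn, which crosslinks type 4, had the smallest p at Pd3 with 0.45, under the threshold. Of 8 tested receptors, Ddr2, a receptor for fibrillar collagen, and Mrc2, which takes up collagen, were higher at Pd3 (1.08 ± 0.29 and 0.94 ± 0.18) and at Pd7, and Ddr1 was lower at Pd21 (-0.80 ± 0.20). Of 4 tested genes for degradation, the gelatinase Mmp2 (1.18 ± 0.17) and the protease Ctsk (0.94 ± 0.25) were higher at Pd3, and Fap was lower at Pd7 (-1.29 ± 0.22). Of 8 genes that link TGF-beta signals to collagen, Tgfbr2, Ccn2 and Mkx were higher at Pd3. At Pd7 Ccn2 (2.17 ± 0.22) and Mkx were higher and Scx was lower, and none of the 8 was called at Pd21. With an adjusted p under 0.05 (limma, Benjamini-Hochberg), no gene for hydroxylation, folding or crosslinking passed at Pd3. As higher, 1 propeptide gene, 1 receptor, 1 degradation gene and 2 TGF-beta genes passed, against 1.64% of all genes. At Pd7, 4 hydroxylation and 2 TGF-beta genes passed as higher, against 5.88%. As lower, 1 crosslinking, 1 degradation and 1 TGF-beta gene passed, against 5.98%. None of the 7 lists had such a gene at Pd21. Of the 6 stromal markers above, 5 were also called higher at Pd3, and their relation to these genes was not tested.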

How the data were processed

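The authors deposited 1 table per library with 1 value per gene symbol, FPKM values scaled for gene length and library total before deposit. No source names the unit: it was found from the values, which gave whole fragments (tolerance 0.05) for 27294 of 27294 genes above 0 in at least 3 libraries (100.0%) after division by 1 step for each gene and library. The submitters' processing notes name FastQC 0.11.9, Trimmomatic 0.39, STAR 2.7.9a, featureCounts 2.0.1, DESeq2 1.36.0 and GRCm38/mm10, without roles. Libraries were stranded poly-A libraries, and replicates differed beyond counting noise.

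Genes with at least 1 FPKM in 3 libraries of a comparison were fitted on log2(FPKM + 1) with limma 3.58.1 (R 4.3.3), with a variance trend and Benjamini-Hochberg adjustment over all genes tested, and the test was tried on simulated data. Tables and figures used Python 3.11.15, pandas 2.3.3, numpy 2.4.6 and matplotlib 3.10.9. Positions and promoters came from the RefSeq annotation of GRCm38. Intervals of a difference are 95% intervals of the fit.

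Named members are the 3 most abundant of a class, each member called between diets, and the smallest p of a class in a comparison. Members, 7 lists of collagen-related genes and 15 marker lists were chosen with earlier results of these data known. Alternatives were a pseudocount of 0.1, no filter, the adjusted p, all 18 libraries in 1 model, median-ratio scaling, limma-voom on recovered fragments, the replicate number as a block and each library left out. Same-numbered libraries correlated at 0.13, 0.26 and 0.29 between Pd3 and Pd7 in F1-Control, a pairing seen in the data and not stated in the labels. In F1-HHcy these values were -0.02, 0.12 and 0.09, and between diets they ran from -0.34 to 0.09.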

Additional observations from a re-analysis of the deposited data

Results flagged for a closer look

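The diet effect of 3 collagen genes differed between Pd3 and Pd21 by a test of the difference itself, fitted on all 18 libraries (limma, Benjamini-Hochberg adjusted p under 0.05). The effect at Pd21 minus the effect at Pd3 was -1.53 for Col1a2 (1.14 at Pd3 and -0.39 at Pd21), -2.43 for Col4a4 (2.09 and -0.34) and -1.82 for Col8a2 (0.92 and -0.90). Day and batch label cannot be told apart in this difference, and the F1-Control libraries at Pd21 held oviduct markers, whose part was not tested.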

How the results depend on the processing

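Of 1006 alternative values for single called members, 830 kept the call, 176 lost it and 0 changed direction. With the adjusted p as the call, the lower members at Pd3 fell to 0, the 9 higher and 3 lower at Pd7 to 3 and 1, the 3 lower at Pd21 to 0, the 6 and 3 from Pd3 to Pd7 in F1-HHcy to 0 and 0, the 6 lower for Pd7 minus Pd3 to 0, and the 2 higher and 15 lower for Pd21 minus Pd3 to 0 and 3. Median-ratio scaling called 1 member lower at Pd3. A model of all 18 libraries called 5 lower at Pd21 and 3 higher with age in F1-HHcy. Limma-voom called 5 lower with age in F1-Control and 5 in F1-HHcy, and both limma-voom and a pseudocount of 0.1 called 1 higher for Pd21 minus Pd3. Leaving out 1 library gave 8 to 15 higher and 0 to 3 lower at Pd3, 5 to 13 and 1 to 4 at Pd7, 0 to 1 and 2 to 10 at Pd21, 5 to 10 and 2 to 7 with age in F1-Control, 2 to 6 and 1 to 4 with age in F1-HHcy, 0 to 3 and 2 to 7 for Pd7 minus Pd3, and 0 to 2 and 12 to 19 for Pd21 minus Pd3. With the replicate number as a block, 10 higher and 2 lower were called at Pd3, 9 and 3 at Pd7, 0 and 4 at Pd21, 7 and 3 with age in F1-Control and 6 and 3 in F1-HHcy. Between diets the same numbers correlated from -0.34 to 0.09. With 3 libraries per group such values cannot decide whether libraries were paired. The cause of these changes was not tested. Precision was set by 3 libraries per group.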
